A study of Mus musculus with 6 samples.

Results

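The genes described here encode the vacuolar H+-ATPase (V-ATPase), the proton pump of lysosomes and synaptic vesicles, together with proteins of the lysosome membrane, enzymes and carriers of lysosomal sterol export, and the MiT family of transcription factors. Members were set by a rule on gene symbols, as protein-coding mouse genes whose symbol starts with *Atp6v* or *Atp6ap*, plus *Tcirg1*, *Lamp1*, *Lamp2*, *Laptm4a*, *Laptm4b*, *Laptm5*, *Npc1*, *Npc2*, *Lipa*, *Mcoln1*, *Clcn7*, *Ostm1*, *Tfeb*, *Tfe3* and *Mitf*. These members and the gene lists used below were chosen with earlier results of these data known, so their counts are descriptions. The rule gave 41 members among 46078 genes, namely 13 subunits of the V1 sector, 10 subunits of the V0 sector, 3 accessory proteins, 11 lysosome genes, 3 MiT factors, and *Atp6v1fnb*, a neighbor of *Atp6v1f* that shares only its name. *Npc2* and *Lipa* encode soluble proteins of the lysosome lumen rather than membrane proteins.

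RNA-Seq was performed on stroke infarcts and on the equivalent region of the contralateral cortex of wild-type C57BL/6J mice, with 3 libraries from each region. All mice received a distal hypoxic (DH) stroke, made by cauterizing the middle cerebral artery and then lowering the oxygen the animals breathed, so the contralateral cortex came from injured brains and not from uninjured mice. Tissue was collected 7 weeks after stroke, the labels give an age of 3 months, and they name no drug treatment. Infarcts were cut out by eye, which makes each library a mixture of every cell type in the piece. Nothing says that libraries came from separate mice, and an infarct and a contralateral library may come from the same mouse. The *p* values therefore measure only the spread between these tissue samples.

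The V-ATPase has a cytosolic V1 sector, which splits ATP, and a membrane V0 sector, which carries protons into the organelle. Some subunits are encoded by a single gene. The a, d and e subunits of V0 and the B, C, E and G subunits of V1 each have paralogs. Such paralogs take the same place in the pump and differ in where they are made. The a1, e2 and G2 forms are the forms known from neurons, whereas the a3 form (*Tcirg1*) and the d2 form are known from osteoclasts and macrophages. Lysosomal degradation depends on the acid that the pump makes, and TFEB, TFE3 and MITF are the factors known to bind an E-box of the sequence CACGTG, within the longer palindrome TCACGTGA, in the promoters of many lysosomal genes.

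Promoter windows were therefore read from RefSeq (GRCm38.p6), each spanning 250 bases before and 50 bases after a transcript start, and 32 of the 41 members had at least 1. CACGTG, which is its own reverse complement, was found in 7 of these 32 members (21.9%), and in 8.09% of the 27025 genes with a window. The 8-base TCACGTGA, which contains it, was found in 5 members (15.6%) and in 1.12% of genes. The related TCATGTGA, searched on both strands, was found in 1 member, *Atp6v0c*, and in 1.15% of genes. The sequences of the 7 members are printed in the sense of the gene, with CACGTG in capitals, because they hold the letters of the E-box named above. In *Lamp1* and *Atp6v0b* no copy lies within TCACGTGA. *Lamp1* is shown first, with 4 copies just before its start. *Clcn7* and *Mcoln1* each hold 2 copies in their window, and only the copy within TCACGTGA is shown for them.
*Lamp1* at chr8:13159081-13159160 (plus strand): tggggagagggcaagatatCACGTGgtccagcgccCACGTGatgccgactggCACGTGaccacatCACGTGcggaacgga
*Atp6v0b* at chr4:117887330-117887409 (minus strand): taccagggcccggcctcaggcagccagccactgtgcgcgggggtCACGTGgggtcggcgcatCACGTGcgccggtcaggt
*Mcoln1* at chr8:3500462-3500491 (plus strand): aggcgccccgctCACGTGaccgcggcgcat
*Clcn7* at chr17:25133386-25133415 (plus strand): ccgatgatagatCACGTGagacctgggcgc
*Atp6v0e* at chr17:26676387-26676416 (plus strand): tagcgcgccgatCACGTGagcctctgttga
*Atp6v0d1* at chr8:105566050-105566079 (minus strand): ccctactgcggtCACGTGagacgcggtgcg
*Atp6v1a* at chr16:44139373-44139402 (minus strand): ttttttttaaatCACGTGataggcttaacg
A match is a description of letters and not of binding. Of the 7 members with CACGTG, 3 rose in infarcts (*Lamp1*, *Clcn7* and *Atp6v0e*), 1 fell (*Atp6v1a*) and 3 did not pass the test (*Atp6v0b*, *Atp6v0d1* and *Mcoln1*). Among all 32 members with a window, 13 rose, 6 fell, 8 did not pass and 5 were not tested, and of all tested genes 34.2% rose and 30.8% fell, so the members with the motif are not set apart by these counts.

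Counts on genes ranged from 12146959 to 13427057 in infarcts and from 11943570 to 19933962 in contralateral cortices. Levels below are CPM (read counts scaled to a common library size) after TMM scaling, and log2 fold changes compare infarcts with contralateral cortices in edgeR's quasi-likelihood test, adjusted over the 15554 genes tested. The 11 neuron markers were all lower in infarcts, and their summed CPM was 743 to 1797 in infarcts, highest in infarct 3, and 9418 to 10185 in contralateral cortices. Of 12 phagocyte markers, 11 were higher, and *P2ry12* did not pass the test (-0.20 on the log2 scale). The sum over the 12 was 6538 to 10285 in infarcts, highest in infarct 1, and 332 to 429 in contralateral cortices. Most of each infarct sum was *Lyz2*, at 7853, 6830 and 4665 CPM in infarcts 1, 2 and 3. No phagocyte marker was at 0 counts in any library. Fibroblast markers (6 of 6 higher, sum 6927 to 8680 against 146 to 189) and oligodendrocyte markers (7 of 8 higher, sum 4349 to 6986 against 2183 to 2606) were also raised. All 6 T cell and all 7 B and plasma cell markers were higher, as were 4 of 7 endothelial markers, and of 8 astrocyte markers 4 were higher and 3 lower. In tissue of this kind fewer cells of a type and less RNA per cell cannot be told apart, and how far these shifts in markers enter the differences reported below was not tested.

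Of the 36 members with enough counts to test, 17 were higher in infarcts, beside 34.2% of all tested genes, and 11 were lower, beside 30.8% of all tested genes. More than 2-fold differences were found in 15 members that were higher (25.7% of all tested genes) and 6 that were lower (20.9% of all tested genes). The median log2 fold change of the 36 members was 0.41, and it was 0.03 over all tested genes. The direction differed by role, as the plot of log2 fold changes by role shows. Of 9 tested V1 subunits 7 fell, of 10 V0 subunits 5 rose and 2 fell, of the 11 lysosome genes 8 rose and 1 fell, and all 3 MiT factors rose. The 5 members not tested were the V1 forms *Atp6v1b1* (2 counts over the 6 libraries), *Atp6v1c2* (27 counts), *Atp6v1e2* (1 count) and *Atp6v1g3* (0 counts), and *Atp6v1fnb* (0 counts). Most of these V1 forms are known from kidney, and the *Atp6v1e2* form from testis.

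**Figure D1:**
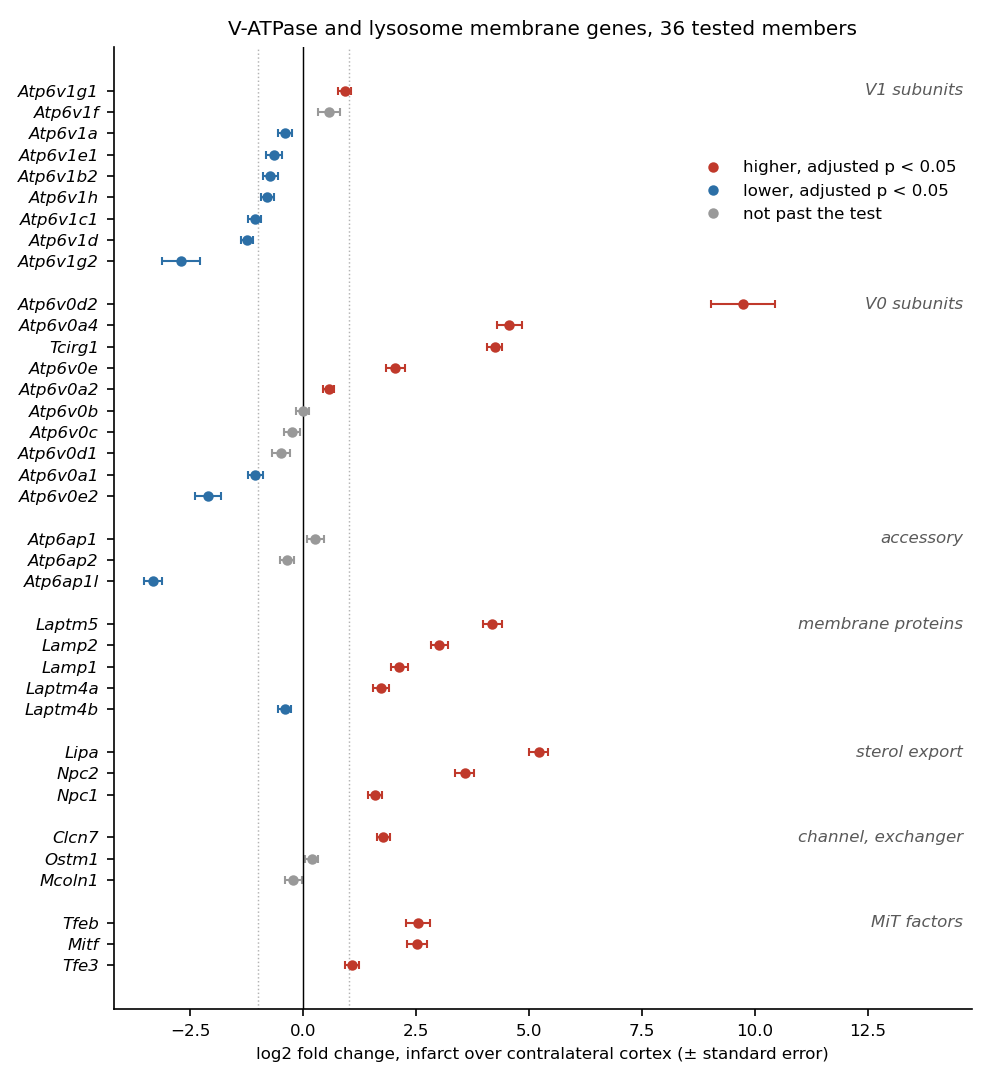
Log2 fold change of each tested member, infarct over contralateral cortex, with its standard error as a bar and dotted lines at a 2-fold difference in either direction. Red and blue points passed the test at an adjusted p under 0.05. Most V1 subunits lie left of 0, whereas 9 of the 11 lysosome genes, *Ostm1* among them without passing the test, and all 3 MiT factors lie to the right, and *Atp6v0d2* lies farthest out at 9.73.

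The largest difference among the members was in the d subunit, which sits at the foot of the V0 stalk. The *Atp6v0d2* gene (ENSMUSG00000028238, chr4:19876841-19922605, minus strand, GRCm38) had 8082, 7018 and 6199 counts in infarcts 1, 2 and 3, but 3, 4 and 19 counts in contralateral cortices 1, 2 and 3. In CPM this was 644, 515 and 423 against 0.157, 0.260 and 1.75. Thus every infarct was above every contralateral cortex by a wide margin, and among the contralateral cortices the third was the highest. The log2 fold change was 9.73 ± 0.71 (SE; edgeR adjusted *p* = 1.92e-05), a factor of 852. This factor rests on few contralateral counts, since leaving out contralateral cortex 3 gave 11.28 on the log2 scale, leaving out contralateral cortex 1 gave 9.13, and limma voom gave 10.33. Its paralog *Atp6v0d1*, the form made in most tissues, had 169, 122 and 154 CPM in infarcts and 182, 176 and 265 CPM in contralateral cortices. The regions did not overlap, but the difference of -0.49 ± 0.20 on the log2 scale was not past the test (edgeR adjusted *p* = 0.0544).

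Paralogs take the same place in the pump, so the makeup of each subunit was also expressed as shares. Each share is that of 1 paralog in the subunit's counts per kilobase of exon, over the mixed cells of a library. Shares need no scaling between libraries. *Atp6v0d2* held 71.6%, 73.6% and 64.4% of the d subunit transcripts in infarcts (69.9% ± 4.85, SD, *n* = 3) and 0.0567%, 0.0976% and 0.435% in contralateral cortices (0.196% ± 0.208, SD, *n* = 3). Infarcts were thus dominated by d2 and contralateral cortices by d1, as the plot of paralog makeup shows. Summed over both paralogs, d subunit transcripts reached 277 ± 47.6 CPM per kilobase in infarcts and 116 ± 28.0 in contralateral cortices (SD, *n* = 3), which is 238% of the contralateral level.

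**Figure D2:**
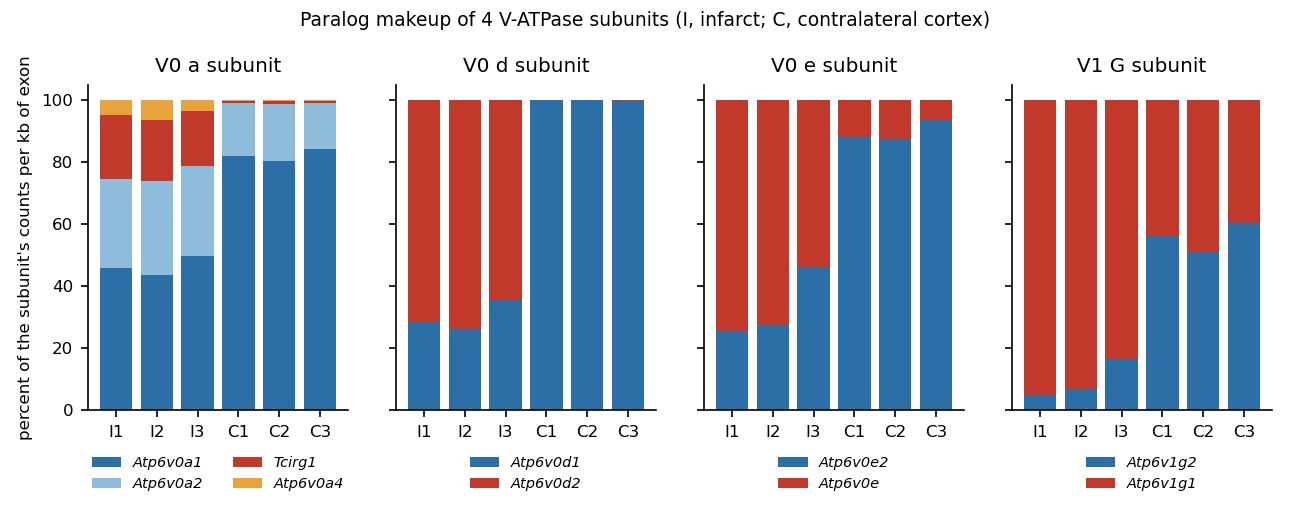
Share of each paralog in the counts per kilobase of exon of the V0 a, d and e subunits and the V1 G subunit, 1 bar for each library. In infarcts *Atp6v0d2* held 64.4% to 73.6% of the d subunit, and in contralateral cortices at most 0.435%; *Atp6v1g2* held 5.07% to 16.7% of the G subunit in infarcts, against 51.0% to 60.4% in the contralateral cortex.

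The a subunit, which forms the proton path and directs the pump to its organelle, has 4 paralogs, and 3 of them rose while 1 fell. *Tcirg1* (ENSMUSG00000001750, chr19:3896050-3907133, minus strand), the a3 form, had 84.8, 84.7 and 81.0 CPM in infarcts and 4.28, 4.69 and 4.34 CPM in contralateral cortices. Libraries of the same region lay within a few CPM of each other, and the log2 fold change was 4.23 ± 0.16 (SE; edgeR adjusted *p* = 1.64e-07), or 18.8-fold. The a4 form, *Atp6v0a4* (chr6:38048483-38124586, minus strand), which is best known from acid-secreting cells of the kidney, had 20.9, 28.9 and 17.6 CPM in infarcts and 0.993, 0.912 and 0.923 CPM in contralateral cortices. It rose by 4.56 ± 0.27 on the log2 scale (SE; edgeR adjusted *p* = 7.35e-07), and 5.21% of its exon length is shared with *D630045J12Rik* on the same strand. *Atp6v0a2*, the form of the Golgi and endosomes, had 169, 188 and 193 CPM against 124, 131 and 119 CPM, a smaller rise of 0.56 ± 0.13 (edgeR adjusted *p* = 0.00422), and 9.86% of its exon length lies opposite an antisense gene. *Atp6v0a1*, the form of neurons and synaptic vesicles, had 266, 264 and 324 CPM in infarcts and 584, 548 and 651 CPM in contralateral cortices. It fell by 1.06 ± 0.16 on the log2 scale (edgeR adjusted *p* = 2.65e-04).

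In spite of its fall, *Atp6v0a1* still held the largest share of a subunit transcripts in infarcts, at 45.9%, 43.5% and 49.8%, compared with 81.9%, 80.2% and 84.1% in contralateral cortices. *Tcirg1* held 20.8%, 19.9% and 17.7% in infarcts (19.5% ± 1.59, SD, *n* = 3) and 0.856%, 0.977% and 0.798% in contralateral cortices (0.877% ± 0.0912, SD, *n* = 3). *Atp6v0a2* accounted for 28.5% to 30.3% in infarcts and 14.96% to 18.6% in contralateral cortices, and *Atp6v0a4* for 3.57% to 6.28% and 0.157% to 0.184%. The sum over the 4 paralogs was 93.4 ± 5.47 CPM per kilobase in infarcts and 110 ± 7.06 in contralateral cortices (SD, *n* = 3), or 84.6% of the contralateral level. The makeup of the a subunit therefore shifted more than its total.

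The e subunit, a small membrane protein of V0, had a different main paralog in the 2 regions. *Atp6v0e*, the form made in most tissues, had 89.1, 71.1 and 66.1 CPM in infarcts and 20.998, 19.92 and 13.94 CPM in contralateral cortices, a rise of 2.04 ± 0.20 on the log2 scale (SE; edgeR adjusted *p* = 1.73e-05). *Atp6v0e2*, the brain form, had 19.7, 17.3 and 36.2 CPM in infarcts and 99.2, 90.2 and 128 CPM in contralateral cortices. It fell by 2.11 ± 0.29 (edgeR adjusted *p* = 2.31e-04), and infarct 3 was the highest of the infarcts. *Atp6v0e* therefore made up 74.4%, 72.5% and 53.9% of e subunit transcripts in infarcts and 11.96%, 12.40% and 6.52% in contralateral cortices. The sum of both was 61.9% of the contralateral level, at 30.6 ± 3.61 against 49.4 ± 7.36 CPM per kilobase (SD, *n* = 3).

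The proteolipid ring of V0, which turns as protons cross the membrane, gave no difference past the test. *Atp6v0b* ranged from 45.8 to 54.6 CPM in infarcts (mean 51.1 ± 4.67, SD, *n* = 3) and from 47.5 to 54.5 CPM in contralateral cortices (mean 51.7 ± 3.67), and *Atp6v0c* from 20.1 to 24.6 CPM (mean 23.0 ± 2.51) and from 23.6 to 30.45 CPM (mean 27.4 ± 3.47). The regions overlapped for both genes, and neither passed the test, with differences of -0.02 ± 0.14 and -0.25 ± 0.17 on the log2 scale (edgeR adjusted *p* = 0.931 and 0.215). The level of *Atp6v0c* is uncertain because reads that match several places were not counted and a processed copy, *Atp6v0c-ps2*, had 8 to 26 counts in each library. An antisense gene covers 11.8% of the exon length of *Atp6v0b*.

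**Figure D3:**
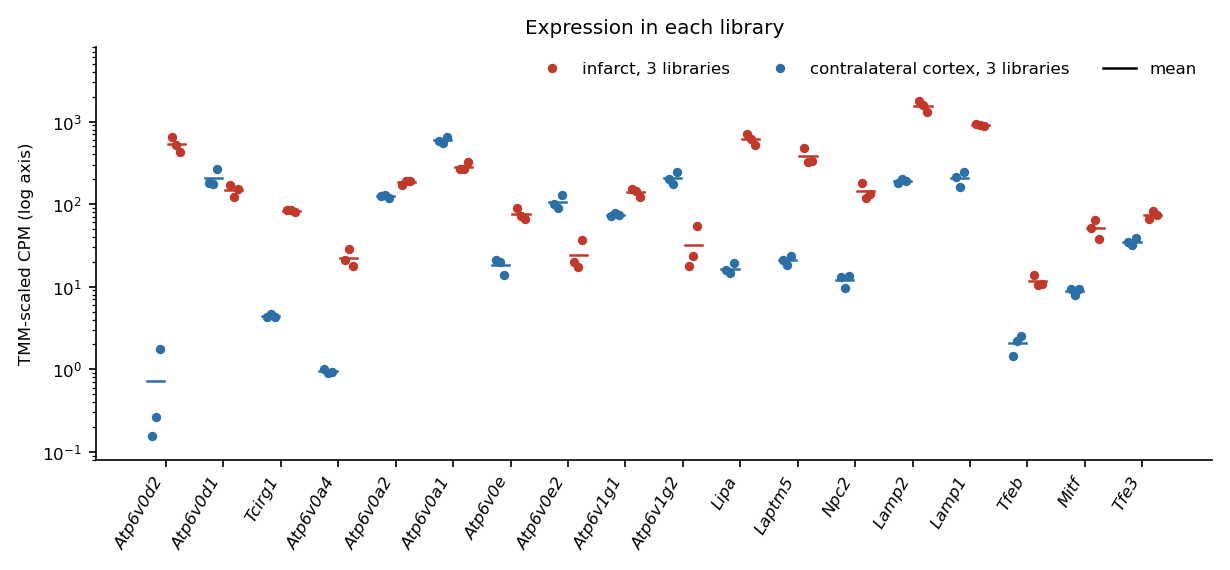
TMM-scaled CPM of 18 members in each library on a log axis, with points for libraries and lines for the mean of 3. For *Atp6v0d2*, *Tcirg1*, *Atp6v0a4*, *Lipa* and *Laptm5* all infarcts lie more than 10-fold above all contralateral cortices, and for *Atp6v0a1*, *Atp6v0e2* and *Atp6v1g2* they lie below.

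The V1 sector, which holds the ATP-splitting A and B subunits and the stalks that join them to V0, was mostly lower in infarcts, with a median log2 fold change of -0.73 over its 9 tested genes. The exceptions were *Atp6v1g1* and *Atp6v1f*. *Atp6v1g1*, the G form found in most tissues, had 152, 144 and 122 CPM in infarcts and 71.0, 77.1 and 73.6 CPM in contralateral cortices, a rise of 0.91 ± 0.14 on the log2 scale (SE; edgeR adjusted *p* = 2.91e-04). *Atp6v1f*, which encodes a small subunit of the central stalk, had 8.53 to 12.3 CPM in infarcts and 5.08 to 8.41 CPM in contralateral cortices, and its difference of 0.57 ± 0.25 was not past the test (edgeR adjusted *p* = 0.0693).

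The brain form of the G subunit, *Atp6v1g2* (ENSMUSG00000024403, chr17:35233660-35238767, plus strand), had 17.9, 23.5 and 54.0 CPM in infarcts and 202, 178 and 248 CPM in contralateral cortices. It fell by 2.71 ± 0.42 on the log2 scale (SE; edgeR adjusted *p* = 8.93e-04), the largest fall in V1, and by 3.32 without infarct 3. Infarct 3 also had the largest sum of neuron markers among the infarcts, 1797 CPM beside 743 and 1007 CPM. The share of *Atp6v1g2* among G subunit transcripts was 5.07%, 6.86% and 16.7% in infarcts (9.54% ± 6.25, SD, *n* = 3) and 56.2%, 51.0% and 60.4% in contralateral cortices (55.9% ± 4.69, SD, *n* = 3). The sum of the G paralogs was 135 ± 6.03 CPM per kilobase in infarcts and 148 ± 13.3 in contralateral cortices, and the regions overlapped, so a difference in the total was not detectable between these libraries.

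The 3 shares fixed for testing were those of *Atp6v0d2*, *Tcirg1* and *Atp6v1g2*, members chosen with earlier results of these data known. None of them overlapped between regions, and each gave *p* = 0.1 in a two-sided exact permutation test over libraries, also after adjustment over the 3 tests, which is the smallest value that 3 against 3 libraries allow. The neuron and phagocyte marker sums given above differed between regions in the same libraries, and their part in these shares was not tested.

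Subunits with a single gene, or with only 1 gene expressed, gave smaller falls. *Atp6v1d*, in the central stalk, had 150, 144 and 161 CPM in infarcts and 345, 388 and 347 CPM in contralateral cortices, a fall of 1.25 ± 0.14 on the log2 scale (SE; edgeR adjusted *p* = 4.19e-05). *Atp6v1c1*, which links the outer stalks to V0 and leaves when the sectors part, had 125, 141 and 154 CPM in infarcts and 273, 312 and 300 CPM in contralateral cortices, a fall of 1.07 ± 0.15 (edgeR adjusted *p* = 1.39e-04). Both genes were thus more than 2-fold lower in infarcts. *Atp6v1b2*, the nucleotide-binding B subunit of brain, had 544, 548 and 588 CPM in infarcts and 834, 864 and 1097 CPM in contralateral cortices, a fall of 0.73 ± 0.17 (edgeR adjusted *p* = 0.00346). *Atp6v1h*, which regulates the coupling of the sectors, had a mean of 125 CPM (118 to 131) in infarcts and 218 CPM (205 to 244) in contralateral cortices, a fall of 0.80 ± 0.14 (edgeR adjusted *p* = 7.15e-04).

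The remaining V1 genes were close to the threshold. *Atp6v1e1*, of the outer stalks, had 44.84, 33.04 and 39.45 CPM in infarcts and 59.6, 50.7 and 73.7 CPM in contralateral cortices, a fall of 0.65 ± 0.19 (SE; edgeR adjusted *p* = 0.0116), which was no longer past the test without contralateral cortex 3 (edgeR adjusted *p* = 0.0524). *Atp6v1a*, the catalytic A subunit, had a mean of 692 CPM (685 to 696) in infarcts and 914 CPM (846 to 961) in contralateral cortices. Its fall of 0.40 ± 0.15 (edgeR adjusted *p* = 0.0385) did not hold without infarct 1 or 2 or without any 1 of the 3 contralateral cortices (edgeR adjusted *p* = 0.0547 to 0.121), nor with scaling by library totals (edgeR adjusted *p* = 0.249). In levels per kilobase, infarcts had 115 CPM of the A subunit and 106 CPM of the B subunit, or 75.8% and 60.1% of the contralateral level, and the C and D subunits stood at 47.4% and 42.1%.

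**Figure D4:**
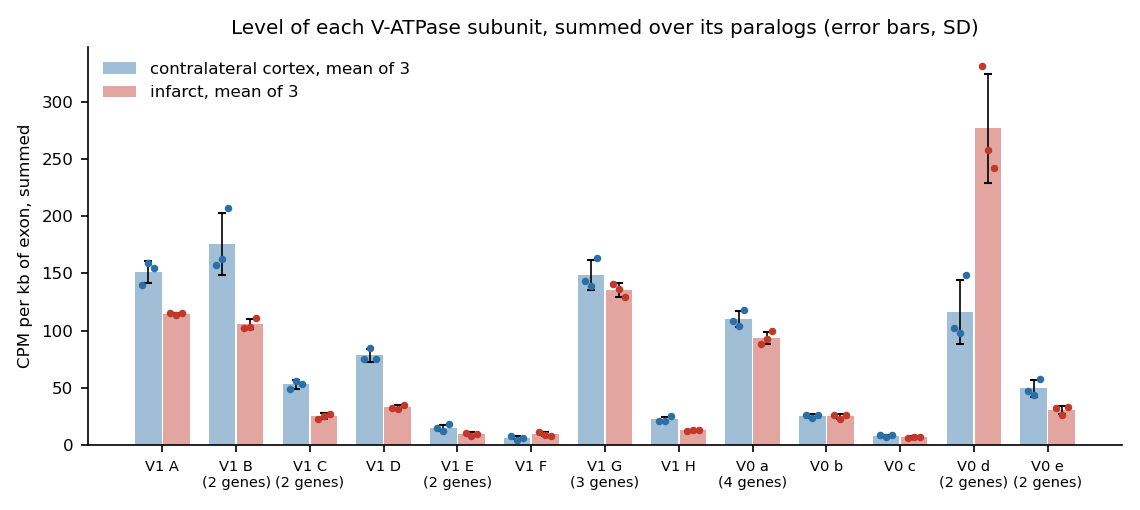
Level of each V-ATPase subunit as TMM-scaled CPM per kilobase of exon, summed over its paralogs, with bars for the mean of 3 libraries, error bars for the SD and points for libraries. The d subunit is at 238% of the contralateral level in infarcts, the b subunit is at 98.9%, and the A, B, C, D, E and H subunits are lower.

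Accessory proteins of the pump did not move as 1 group. *Atp6ap1*, which guides V0 assembly and binds the pump in secretory organelles, had 201, 143 and 176 CPM in infarcts and 134, 124 and 174 CPM in contralateral cortices, which overlapped (0.27 ± 0.18, edgeR adjusted *p* = 0.223). *Atp6ap2*, also called the prorenin receptor, had 410, 401 and 363 CPM in infarcts and 447, 554 and 509 CPM in contralateral cortices, and its difference of -0.36 ± 0.15 was not past the test (edgeR adjusted *p* = 0.0618). *Atp6ap1l* (chr13:90883433-90905355, minus strand), named for its likeness to *Atp6ap1*, had 2.71, 2.20 and 2.59 CPM in infarcts and 22.3, 28.7 and 24.6 CPM in contralateral cortices. Its fall of 3.33 ± 0.21 on the log2 scale (SE; edgeR adjusted *p* = 8.70e-07) was the largest among all members.

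Of the 5 members grouped as lysosome membrane proteins, 4 rose. *Lamp2* (ENSMUSG00000016534, chrX:38401357-38456454, minus strand), a receptor of chaperone-mediated autophagy and a major part of the lysosomal coat, had 1756, 1593 and 1293 CPM in infarcts and 180, 204 and 192 CPM in contralateral cortices, an 8.06-fold rise (log2 fold change 3.01 ± 0.19, SE; edgeR adjusted *p* = 8.53e-07). *Lamp1*, the other abundant coat protein, had 931, 898 and 873 CPM in infarcts and 216, 161 and 244 CPM in contralateral cortices (2.12 ± 0.19; edgeR adjusted *p* = 8.21e-06), with 9.31% of its exon length opposite *Grtp1*. Per kilobase of the union of a gene's exons, *Lamp1* had the highest mean level of all members in infarcts, at 337 CPM. It was followed by *Laptm4a* at 269 CPM and *Atp6v0d2* at 194 CPM. This order depends on the length used. For *Lamp2* the union is 9552 bases and the longest coding transcript 3604 bases, and its level on the union was 162 CPM.

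*Laptm5*, a lysosomal protein of blood-derived cells, had 476, 321 and 335 CPM in infarcts and 20.998, 18.17 and 23.26 CPM in contralateral cortices (4.18 ± 0.21; edgeR adjusted *p* = 3.42e-07), so that all infarcts lay far above the contralateral range. *Laptm4a* averaged 476 CPM (433 to 561) in infarcts and 144 CPM (135 to 162) in contralateral cortices (1.72 ± 0.17; edgeR adjusted *p* = 1.65e-05). *Laptm4b*, its paralog, went the other way, with a mean of 229 CPM (213 to 251) against 305 CPM (271 to 327). This fall of 0.41 ± 0.15 (edgeR adjusted *p* = 0.0337) was lost without infarct 1 or 3 or without contralateral cortex 2 or 3 (edgeR adjusted *p* = 0.0671 to 0.101), and with library totals (edgeR adjusted *p* = 0.230).

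All 3 genes of sterol release and export rose. *Lipa* (ENSMUSG00000024781, chr19:34492318-34527474, minus strand), the acid lipase that frees cholesterol and fatty acids from lipoproteins and lipid droplets taken up by the lysosome, had 707, 610 and 521 CPM in infarcts and 15.72, 14.65 and 19.38 CPM in contralateral cortices. The rise was 37.0-fold, or 5.21 ± 0.21 on the log2 scale (SE; edgeR adjusted *p* = 1.64e-07). *Npc2*, the soluble carrier that takes up freed cholesterol, had 181, 118 and 134 CPM in infarcts and 13.3, 9.77 and 13.5 CPM in contralateral cortices (3.57 ± 0.22; edgeR adjusted *p* = 8.16e-07). *Npc1*, the membrane protein that receives cholesterol from NPC2, had 372, 312 and 311 CPM in infarcts and 103, 111 and 118 CPM in contralateral cortices (1.58 ± 0.15; edgeR adjusted *p* = 1.15e-05). The 3 genes thus rose by unequal amounts, 37.0-fold, 11.9-fold and 3.00-fold.

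Of the 3 ion channel and exchanger genes, *Clcn7* rose and *Ostm1* and *Mcoln1* did not pass the test, a share near the 34.2% of all tested genes that were higher. *Clcn7*, which encodes the lysosomal chloride-proton exchanger, had 231, 198 and 196 CPM in infarcts and 65.0, 60.2 and 58.3 CPM in contralateral cortices (1.77 ± 0.14, SE; edgeR adjusted *p* = 4.04e-06). Its partner subunit *Ostm1* had 121, 147 and 115 CPM in infarcts and 111, 118 and 107 CPM in contralateral cortices, which overlapped (0.19 ± 0.14; edgeR adjusted *p* = 0.275). *Mcoln1*, the lysosomal calcium channel TRPML1, had 26.4, 30.8 and 24.3 CPM in infarcts and 31.08, 26.04 and 38.02 CPM in contralateral cortices, which also overlapped (-0.22 ± 0.19; edgeR adjusted *p* = 0.322). A test of *Clcn7* against *Ostm1* was not made.

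The MiT factors all rose. *Tfeb* had 13.9, 10.4 and 10.9 CPM in infarcts and 1.46, 2.21 and 2.49 CPM in contralateral cortices (2.53 ± 0.27, SE; edgeR adjusted *p* = 2.80e-05). *Mitf*, also known from melanocytes and osteoclasts, had 51.1, 64.6 and 37.6 CPM in infarcts and 9.45, 8.01 and 9.41 CPM in contralateral cortices (2.51 ± 0.22; edgeR adjusted *p* = 8.23e-06). *Tfe3* had 66.8, 82.8 and 73.6 CPM in infarcts and 34.3, 31.8 and 39.3 CPM in contralateral cortices (1.08 ± 0.15; edgeR adjusted *p* = 1.86e-04). Infarcts thus held 5.80-fold more *Tfeb*, 5.70-fold more *Mitf* and 2.12-fold more *Tfe3* than contralateral cortices. Per kilobase of exon *Tfeb* was the lowest of the 3 in both regions, at 2.07 CPM in infarcts beside 8.03 CPM for *Tfe3* and 8.25 CPM for *Mitf*. These are transcript levels, and the activity of these factors, which is set largely by where the protein sits in the cell, was not measured.

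Other genes of the same pathways are described by lists chosen by role. The counts of each list stand beside 34.2% higher and 30.8% lower among all tested genes. Of 34 soluble lysosomal hydrolases and cofactors, 31 rose, none fell and 3 did not pass the test, with a median log2 fold change of 2.53. The largest rises were in the cysteine proteases *Ctss* (5.18 ± 0.24) and *Ctsl* (4.84 ± 0.21), with *Ctsl* at 1809 to 1974 CPM in infarcts and 53.6 to 76.0 CPM in contralateral cortices. The smallest rises were in *Arsb* (0.52) and *Plbd2* (0.75). Beside these, the V1 and V0 subunits together had a median of -0.40 over 19 tested genes. Of these subunits 6 rose, a share near that of all tested genes, and 9 fell.

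Of 31 tested genes in a list of other lysosome membrane proteins, 19 rose, 4 fell and 8 did not pass, with a median of 1.26. *Mcoln3* and *Mcoln2*, the close relatives of *Mcoln1*, led the list with log2 fold changes of 9.06 ± 0.61 and 7.49 ± 0.77. *Mcoln3* had 54.1, 31.0 and 36.2 CPM in infarcts and 0, 0 and 0.277 CPM in contralateral cortices, and *Mcoln2* had 34.5, 25.9 and 17.7 CPM against 0, 0 and 0.554 CPM. Both factors rest on near-zero contralateral counts. *Lamp5*, a LAMP of neurons, fell by 4.55 ± 0.25, from 103 to 147 CPM in contralateral cortices to 4.19 to 7.41 CPM in infarcts, opposite in direction to *Lamp1* and *Lamp2*, and *Clcn6*, the endosomal relative of *Clcn7*, fell by 1.31.

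Genes for the assembly and regulation of the pump were mostly lower in infarcts. Of 11 tested, 1 rose, 6 fell and 4 did not pass, with a median of -1.20. *Dmxl2*, a rabconnectin that helps V1 join V0 and is known from synaptic vesicles, fell by 1.99 ± 0.20, and *Oxr1*, of the TLDc proteins that act on the pump, fell by 1.78 ± 0.15. *Tldc1* was the gene that rose (0.52 ± 0.20; edgeR adjusted *p* = 0.0445). The 10 synaptic vesicle genes, whose vesicles use the pump to load transmitter, all fell, with a median of -2.87 and a range from -5.15 (*Slc17a6*, a glutamate carrier) to -2.22 (*Slc32a1*, the GABA carrier).

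Of 16 genes of lysosomal nutrient sensing and MiT control, 6 rose, 6 fell and 4 did not pass, beside 34.2% higher and 30.8% lower among all tested genes, and the median log2 fold change was 0.34. The largest rises were in *Tfec*, the remaining MiT gene (6.68 ± 0.49, with 6.35 to 8.81 CPM in infarcts and 0 to 0.104 CPM in contralateral cortices), and *Fnip2*, a partner of folliculin (2.57 ± 0.19). The largest falls were in the Rag GTPase genes *Rragb* (-2.12 ± 0.23) and *Rragd* (-1.47 ± 0.16). Hence all 4 MiT genes were higher in infarcts.

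**Figure D5:**
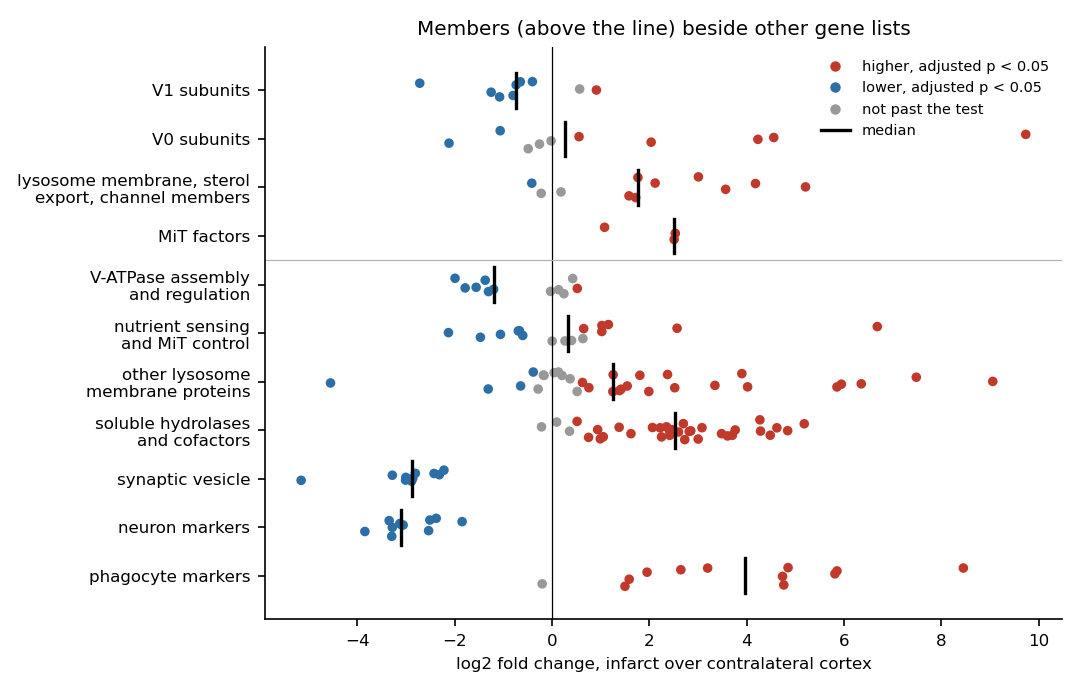
Log2 fold change, infarct over contralateral cortex, of the members by role (above the gray line) and of the other gene lists and 2 marker lists (below it), with 1 point per tested gene and a black bar at the median. The medians run from -3.09 for neuron markers and -2.87 for synaptic vesicle genes, through -0.73 for V1 and 0.27 for V0, to 2.53 for soluble hydrolases and 3.97 for phagocyte markers.

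Because *Tcirg1*, *Atp6v0d2*, *Clcn7*, *Ostm1* and *Mitf* are known from bone-resorbing osteoclasts, markers of that cell were read in the same libraries. Of 9 tested, 7 were higher, 1 was lower and 1, *Car2*, did not pass (-0.15 ± 0.20 on the log2 scale). The sum over the 11 markers listed was 504 to 600 CPM in infarcts and 164 to 199 CPM in contralateral cortices. Most of each contralateral sum was *Car2*, at 140, 171 and 144 CPM in contralateral cortices 1, 2 and 3. In infarcts 1, 2 and 3 *Car2* had 106, 124 and 181 CPM. *Acp5*, the tartrate-resistant acid phosphatase, was at 74.8 to 88.0 CPM in infarcts and 0.0522 to 0.369 CPM in contralateral cortices (log2 fold change 9.13 ± 0.38), and *Ctsk*, the collagen-degrading cathepsin K, was at 120 to 225 CPM and 3.71 to 4.62 CPM (5.47 ± 0.29). *Oscar*, an osteoclast receptor, fell by 2.13. The fusion gene *Ocstamp* and the calcitonin receptor *Calcr* had too few counts to test, with *Ocstamp* at 0 counts in infarct 1 and all 3 contralateral cortices, and *Calcr* at 0 counts in infarcts 2 and 3 and in contralateral cortices 1 and 3. *Dcstamp*, another fusion gene, was at 0 counts in contralateral cortex 1. Several of these markers, among them *Acp5* and *Ctsk*, are also made by macrophages, and their part in the differences of the V-ATPase genes was not tested.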

How the data were processed

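The authors prepared stranded poly(A) libraries from 6 tissue samples, sequenced paired reads on a NextSeq500, demultiplexed them with bcl2fastq 2.19, trimmed them with Trimmomatic 0.32, aligned them to GRCm38 with STAR 2.5.2b and counted genes with htseq-count. The deposited values are raw counts per Ensembl gene, without normalization. The htseq-count version, annotation and strand setting are not given in the sources used here, so reads of genes that overlap on opposite strands may be mixed. In each table, 5 entries stand for reads without a gene and were not used. They include reads that align to several places (14.1% to 18.2% of tallied reads), and 65.7% to 73.4% of reads fell on genes.

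Symbols, positions and exon lengths came from GENCODE M21, which held 45229 of the identifiers and lacked 849. Counts were filtered with filterByExpr, scaled with TMM and tested with edgeR 4.0.16 (robust glmQLFit, glmQLFTest) in R 4.3.3, with region as the only term and Benjamini-Hochberg adjustment over 15554 genes at 0.05. The biological coefficient of variation was 0.220. Tested on simulated data with 15386 genes, the procedure recovered 188 of 200 genes changed 4-fold (94%) and called 19 unchanged genes. Only these 200 genes were changed, whereas 34.2% of tested genes were higher and 30.8% lower in the real data. The simulation therefore cannot show how the scaling or the rate of false calls behaves when so many genes differ. Paralog shares used the union of a gene's exons as its length.

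Every member is accounted for. Values of each library are given for tested pump subunits with paralogs and for the accessory, sterol, channel and MiT genes. They are also given for the 5 largest and 5 smallest log2 fold changes past the test. Members not tested are given by their counts summed over all libraries. Of each pathway list, the 2 largest and 2 smallest changes past the test were eligible to be named. *Atp6v0c-ps2* and overlapping genes are named outside that rule, as are marker genes. Members and lists were chosen with earlier results of these data known.

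Alternatives were RLE, upper-quartile and library-total scaling, no filter, at least 10 counts in every library, DESeq2 1.42.0, limma 3.58.1 (voom), the replicate number as a block, thinning to the smallest library, each library left out, and other lengths for shares. The authors also analyzed these counts with DESeq2. Tables and plots were made with Python 3.11.15, pandas 2.3.3 and matplotlib 3.10.9. Protein sequences were not used here.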

Additional observations from a re-analysis of the deposited data

How the results depend on the processing

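Of the 36 tested members, 27 kept their direction and their side of the threshold under all 15 alternatives, with *Atp6v0d2* absent from the setting that asked for at least 10 counts in every library. The members that did not were *Atp6v1a*, *Laptm4b* and *Atp6v1e1*, which lost their calls under some settings, *Atp6v0d1*, *Atp6v1f*, *Atp6ap1*, *Atp6ap2* and *Ostm1*, which passed under some settings, and *Atp6v0b*, whose log2 fold change of -0.02 became 0.19 with library totals, 0.0024 with no filter, 0.02 (0.0154) with at least 10 counts in every library, 0.0045 after thinning, 0.0774 without infarct 2 and 0.02 (0.0209) without contralateral cortex 3 (-0.0803 to 0.0774 over all libraries left out), none past the test. The cause was not tested. Beside the losses given in the report, edgeR did not call *Atp6v1a* with no filter (adjusted *p* = 0.0787) or with at least 10 counts in every library (adjusted *p* = 0.0551), nor *Laptm4b* with no filter (adjusted *p* = 0.0606). Library totals shifted the median over all genes by 0.20 on the log2 scale, and gave 20 members higher and 9 lower. *Atp6ap1* (0.47, adjusted *p* = 0.0354) and *Ostm1* (0.39, adjusted *p* = 0.0391) passed in edgeR under that scaling alone. Over the other settings that kept all libraries, 16 or 17 members were higher and 10 to 12 lower.

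Leaving out 1 library in turn gave 17 to 18 members higher and 8 to 10 lower, 15 to 16 more than 2-fold higher and 4 to 6 more than 2-fold lower. The share of *Tcirg1* differed between regions by 17.95 to 19.51 percentage points, that of *Atp6v0d2* by 67.79 to 72.41 and that of *Atp6v1g2* by -49.92 to -44.09. Without length correction these differences were 13.99, 77.49 and -55.19 points, beside 18.62, 69.67 and -46.34 as reported, and that of *Atp6v1g2* was -52.94 points with the longest coding transcript.

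Infarct and contralateral libraries with equal numbers did not deviate together (correlations across genes -0.19, 0.10 and 0.0011), so the numbers were not taken to pair them. With the replicate number as a block, edgeR called 17 members higher and 10 lower. *Atp6v1a* (adjusted *p* = 0.0835) and *Laptm4b* (adjusted *p* = 0.0555) were not called under the block, and *Atp6v0d1* was (-0.47, adjusted *p* = 0.0473). *Atp6v0d2* had 3 to 19 counts in contralateral cortices, and 5 members had too few counts to test.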
